A study of Mus musculus with 10 samples.

Results

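The genes described here are 10 genes of blood platelets and of megakaryocytes, the large cells that shed them. They are the granule chemokines Pf4 and Ppbp, the integrin chains Itga2b and Itgb3, the receptor chains Gp1ba, Gp1bb, Gp5 and Gp9, the collagen receptor Gp6, and Vwf. They were found by gene symbol in the platform's table of probe sets, the groups of short probes that each measure a transcript. The table names 9 of the 10 genes, out of 18193 genes named by 1 symbol, through 11 of 45037 probe sets. Gp1ba has no probe set of its own in that table and is not analysed here. One more probe set that carries the symbols of both Gp1bb and a neighbouring gene was not used. For each of the 9 genes the brightest probe set exceeded its array's median signal in 10 of 10 arrays.
The arrays measured spleen RNA of 10 female BALB/c mice, 1 array per mouse, and the labels describe the mice as biological replicates. Every mouse, arthritic or not, had been immunized intraperitoneally on 3 occasions with human cartilage proteoglycan (PG) in the adjuvant DDA, so no naive mouse serves as a control. There were 2 old arthritic mice (both 9 months), 2 old non-arthritic mice (7 and 5 months), 2 young arthritic mice (5 and 4 months) and 4 young non-arthritic mice (3, 3, 2 and 1 months). The labels do not say whether these ages were taken at the first injection or at sacrifice. The paper groups its mice by age at the first injection. On its schedule a mouse 1 month old at sacrifice could not have had 3 injections. An age of 5 months occurs in an old and in a young group. In either age group the arthritic mice were all older than the non-arthritic ones, so arthritis and age cannot be told apart there. Mean ages were 6.75 months for arthritic (n = 4) and 3.5 months for non-arthritic mice (n = 6).
Platelets are cell fragments without a nucleus, and megakaryocytes make them. In the mouse the spleen as well as the bone marrow holds megakaryocytes, and splenic red pulp stores platelets. At a damaged vessel wall, von Willebrand factor (Vwf) binds the GPIb-IX-V complex on the platelet surface, Gp6 binds collagen, and the integrin of Itga2b and Itgb3 then binds fibrinogen and links platelets to each other. Activated platelets release alpha granules, which hold Pf4 and the chemokines cut from the Ppbp product. In whole spleen tissue, fewer megakaryocytes or platelets and less RNA per cell cannot be told apart.
The signals are log2 values from robust multi-array average (RMA) processing, so a difference of 1 is a doubling. The median signal ran from 6.88 to 6.96 over the 10 arrays, and any pair of arrays correlated at 0.981 to 0.997 over all probe sets. No arrays held identical values. The kept marker genes of spleen B cells (9), T cells (8) and macrophages (12) exceeded the array median in every array. The kept erythroid (15) and neutrophil (14) genes did so too. Because kept genes already exceed it in 2 or more arrays, this is only a weak check of the labelled tissue. Tests were made on the 23805 probe sets whose signal exceeded the array median in 2 or more arrays.

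Start-site sequence of 4 of the genes is printed because these genes moved together across the mice, as described below. Pf4 and Ppbp are neighbours on chromosome 5, and Gp1bb and Gp5 belong to 1 receptor complex. RefSeq windows on GRCm38.p6 (250 bases before to 50 after the annotated start) were found for 8 of the 10 genes, Itgb3 and Vwf being the others. They were searched on both strands for GATA words (the letters AGATAA or else AGATAG and likewise TGATAA or else TGATAG) and Ets words (the letters AGGAAG or else CGGAAG), since GATA1 and the Ets factor FLI1 are known regulators of megakaryocyte genes. Capitals mark the words found, and a word on the opposite strand appears as its reverse complement. No word found overlapped another.
Pf4, chr5:90772185-90772484, plus strand: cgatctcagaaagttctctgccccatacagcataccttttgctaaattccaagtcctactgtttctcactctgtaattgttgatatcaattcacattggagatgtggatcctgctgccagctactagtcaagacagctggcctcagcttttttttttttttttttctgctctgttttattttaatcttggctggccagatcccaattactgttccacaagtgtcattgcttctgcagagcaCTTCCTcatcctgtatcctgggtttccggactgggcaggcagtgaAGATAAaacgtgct
Ppbp, chr5:90768268-90768567, plus strand: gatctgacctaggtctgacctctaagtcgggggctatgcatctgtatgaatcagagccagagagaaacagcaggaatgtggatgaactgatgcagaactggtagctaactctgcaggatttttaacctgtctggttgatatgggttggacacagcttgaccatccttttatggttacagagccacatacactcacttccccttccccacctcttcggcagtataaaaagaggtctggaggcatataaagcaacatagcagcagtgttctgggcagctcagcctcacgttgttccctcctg
Gp1bb, chr16:18622354-18622653, minus strand: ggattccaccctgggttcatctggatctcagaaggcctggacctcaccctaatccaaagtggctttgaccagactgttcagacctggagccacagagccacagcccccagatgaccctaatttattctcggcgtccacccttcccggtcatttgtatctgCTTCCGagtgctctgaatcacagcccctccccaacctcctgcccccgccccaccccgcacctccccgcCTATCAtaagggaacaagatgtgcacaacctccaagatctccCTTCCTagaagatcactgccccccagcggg
Gp5, chr16:30310732-30311031, minus strand: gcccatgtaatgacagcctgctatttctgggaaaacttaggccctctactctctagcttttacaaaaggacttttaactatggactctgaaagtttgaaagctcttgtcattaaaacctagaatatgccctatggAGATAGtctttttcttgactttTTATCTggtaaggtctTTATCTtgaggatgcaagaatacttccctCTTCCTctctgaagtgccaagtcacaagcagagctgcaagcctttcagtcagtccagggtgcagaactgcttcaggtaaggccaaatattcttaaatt
The Pf4 window held 1 word of each kind and the Gp5 window 3 GATA words and 1 Ets word. The Gp1bb window held 1 GATA word and 2 Ets words, whereas the Ppbp window held none of them. A GATA word occurred in 5 of the 8 windows (Pf4, Gp1ba, Gp1bb, Gp5, Gp6), against 29.8% of 32851 windows of all genes. An Ets word occurred in 6 of the 8 (all but Ppbp and Gp6), against 46.5% of all windows. Both kinds occurred in 4 of the 8, against 12.6%. A match describes letters only, and binding at these places was not measured. In the annotation no gene lies between Ppbp and Pf4, with Cxcl5 and Cxcl3 on either side of the pair.

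Across the 10 spleens the 9 genes followed nearly 1 pattern. Their signals were highest in the young arthritic mice and in the 2-month-old young non-arthritic mouse, and lowest in both old non-arthritic mice and the 1-month-old mouse. The old arthritic mice lay in between. The plot of the log2 signals by group shows each gene on its own scale.

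**Figure D1:**
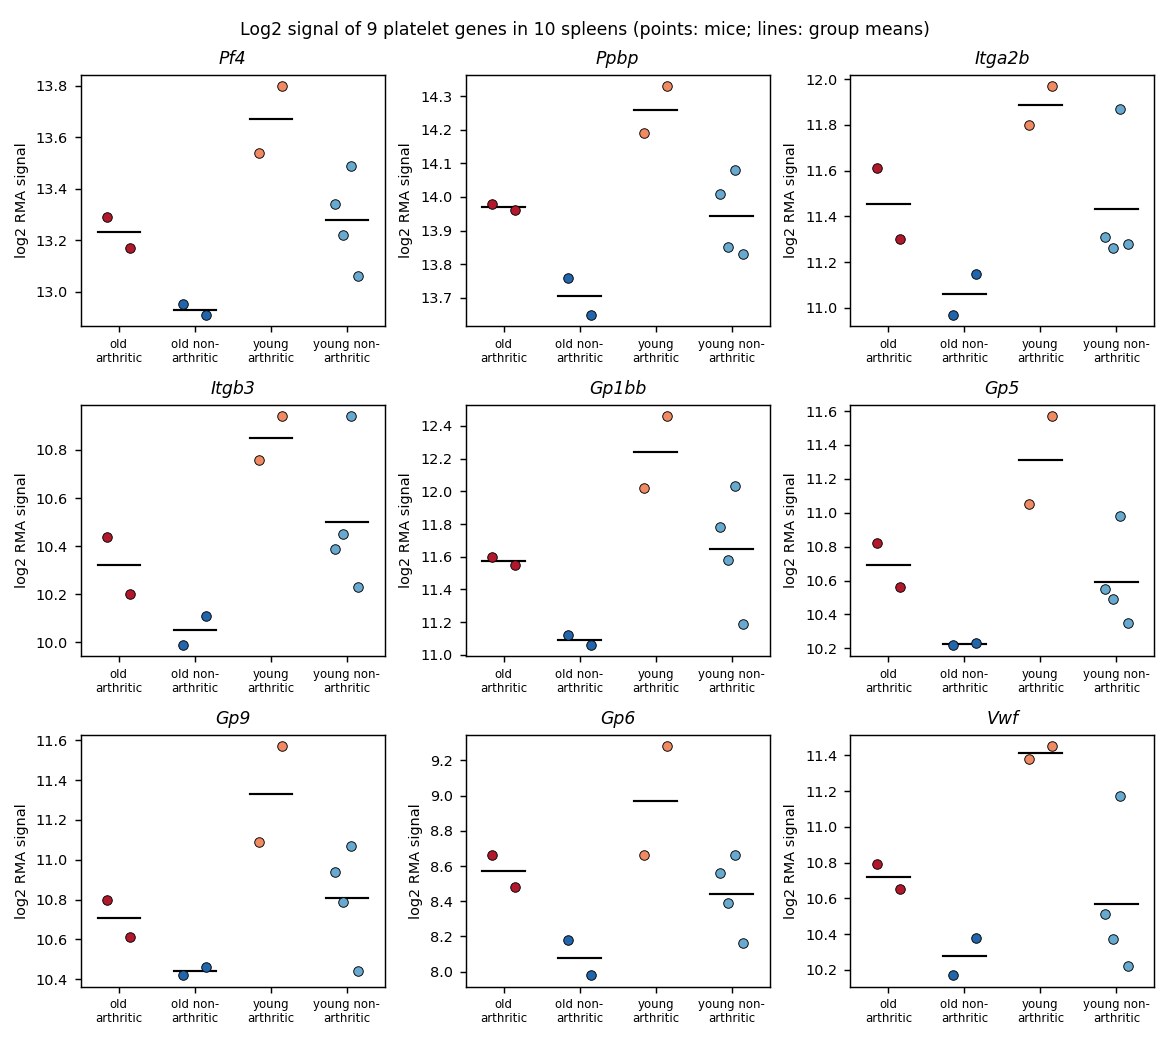
Log2 RMA signal of 9 platelet genes in 10 spleens, 1 panel per gene, with the 4 groups along the horizontal axis. Points are mice and lines are group means. Young arthritic mouse 2 is the highest or shares the highest value in every panel. The old arthritic mice lie above the old non-arthritic mice in all 9, as they do for 35.3% of all probe sets.

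Pf4 encodes platelet factor 4, a chemokine stored in alpha granules. Its signal was 13.29 and 13.17 in old arthritic mice, against 12.95 and 12.91 in old non-arthritic mice. It was 13.54 and 13.80 in young arthritic mice, against 13.34, 13.22, 13.49 and 13.06 in young non-arthritic mice. The arthritic mice lay above the non-arthritic mice within both age groups, whereas over all mice the statuses overlapped.
Ppbp encodes the precursor of further granule chemokines, among them a neutrophil attractant. Its signal was 13.98 and 13.96 in old arthritic mice, against 13.76 and 13.65 in old non-arthritic mice. It was 14.19 and 14.33 in young arthritic mice, against 14.01, 13.85, 14.08 and 13.83 in young non-arthritic mice. Here too the groups were apart within each age group.
Itga2b encodes the integrin chain also known as CD41, which marks the megakaryocyte lineage. It measured 11.61 and 11.30 in old arthritic mice, against 10.97 and 11.15 in old non-arthritic mice. Values in young arthritic mice were 11.80 and 11.97, against 11.31, 11.26, 11.87 and 11.28 in young non-arthritic mice. The value of 11.87, in the 2-month-old mouse, overlapped the young arthritic mice and stood apart from the other young non-arthritic mice.
Itgb3 encodes the partner chain, which other cell types also carry. It measured 10.44 and 10.20 in old arthritic mice, against 9.99 and 10.11 in old non-arthritic mice. It reached 10.76 and 10.94 in young arthritic mice, against 10.39, 10.45, 10.94 and 10.23 in young non-arthritic mice. The 2-month-old mouse equalled the higher of the young arthritic mice at the printed precision. A second, dimmer probe set of Itgb3 gave 8.99 and 8.79 in old arthritic mice, against 8.82 and 8.80 in old non-arthritic mice. It gave 9.32 and 9.48 in young arthritic mice, against 9.30, 9.03, 9.07 and 8.75 in young non-arthritic mice, so on it the old groups overlapped and a 3-month-old mouse came closest to the arthritic mice.
Gp1bb, Gp5 and Gp9 encode chains of the GPIb-IX-V complex, whose Gp1ba chain carries the binding site for von Willebrand factor. Gp1bb measured 11.60 and 11.55 in old arthritic mice, against 11.12 and 11.06 in old non-arthritic mice. It reached 12.02 and 12.46 in young arthritic mice, against 11.78, 11.58, 12.03 and 11.19 in young non-arthritic mice. The old groups were far apart relative to their spread, whereas the young groups overlapped by 1 mouse. A second probe set of Gp1bb ran from 6.71 to 6.90 in arthritic mice and from 6.21 to 6.75 in non-arthritic mice, below the median of its array in all 10 arrays, and was left out of the main tests.
Gp5 encodes the chain that is cut by thrombin on activated platelets. It measured 10.82 and 10.56 in old arthritic mice, against 10.22 and 10.23 in old non-arthritic mice. In young arthritic mice it measured 11.05 and 11.57, against 10.55, 10.49, 10.98 and 10.35 in young non-arthritic mice. The arthritic mice lay above the non-arthritic mice in both age groups, by little in the young mice.
Gp9 encodes the small chain that the complex needs to reach the cell surface. It measured 10.80 and 10.61 in old arthritic mice, against 10.42 and 10.46 in old non-arthritic mice. In young arthritic mice it measured 11.09 and 11.57, against 10.94, 10.79, 11.07 and 10.44 in young non-arthritic mice. The lower young arthritic mouse and the 2-month-old mouse differed little.
Gp6, which signals through an Fc receptor chain when collagen binds, measured 8.66 and 8.48 in old arthritic mice, against 8.18 and 7.98 in old non-arthritic mice. In young arthritic mice it measured 8.66 and 9.28, against 8.56, 8.39, 8.66 and 8.16 in young non-arthritic mice. The lower young arthritic mouse and the 2-month-old mouse were equal at this precision.
Vwf, made by megakaryocytes and by endothelial cells, measured 10.79 and 10.65 in old arthritic mice, against 10.17 and 10.38 in old non-arthritic mice. The young arthritic mice had 11.38 and 11.45, against 10.51, 10.37, 11.17 and 10.22 in young non-arthritic mice. The young arthritic mice lay above all others, with the 2-month-old mouse next.

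The genes ordered the mice alike. Young arthritic mouse 2 (4 months) ranked first for 9 of 9 genes, and young arthritic mouse 1 and the 2-month-old young non-arthritic mouse were among the top 3 for 9 of 9. Old non-arthritic mouse 1 was among the lowest 3 for 9 genes, old non-arthritic mouse 2 for 8 and the 1-month-old mouse for 7. As the mean deviation of the 9 genes from their own mean over 10 arrays, the old arthritic mice lay at 0.05 and -0.11, against -0.41 and -0.39 in the old non-arthritic mice. The young arthritic mice lay at 0.33 and 0.65, against -0.01, -0.12, 0.31 and -0.30 in the young non-arthritic mice. Within each age group the arthritic mice lay above the non-arthritic mice, narrowly so in the young.

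**Figure D2:**
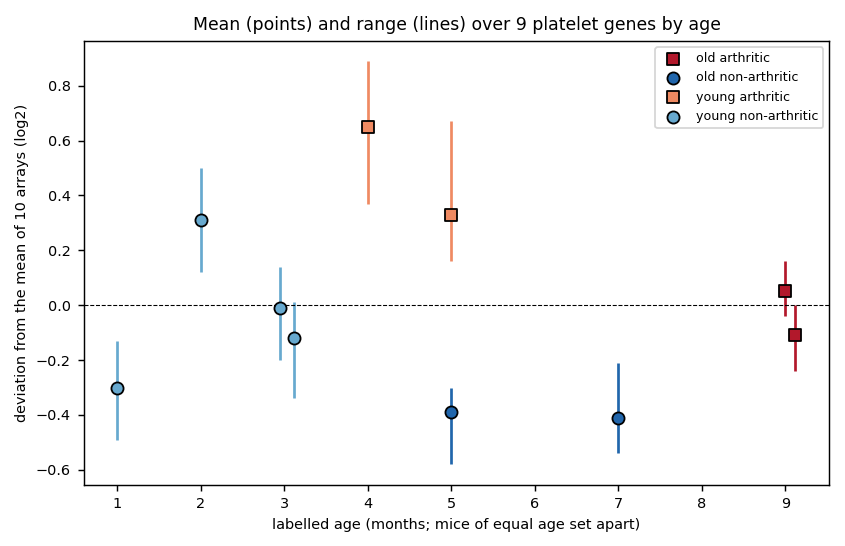
Mean deviation of 9 platelet genes from their mean over 10 arrays (vertical axis, log2; lines span the lowest and highest gene) against labelled age in months. Squares are arthritic and circles non-arthritic mice. At 4 months and above, the 4 arthritic mice lie between -0.11 and 0.65 and the 2 non-arthritic mice at -0.41 and -0.39, whereas mice of 1 to 3 months run from -0.30 to 0.31.

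Over the 36 pairs of these genes, Pearson's r across the 10 arrays ran from 0.83 to 0.99 with a median of 0.94, and Spearman's rho from 0.78 to 0.99 with a median of 0.93. After each group's mean was removed, r ran from 0.54 to 0.98 with a median of 0.86, so the genes also moved together around the group means. In a group of 2 mice the deviations mirror each other, so this r rests on few independent values. These values describe 10 arrays that share tissue and processing, and no test was made of them. The weakest pairs held Gp6 (0.83 with Itgb3, 0.85 with Vwf and 0.85 with Itga2b).

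The main question of the design was how the spleens of arthritic mice differed from those of non-arthritic mice. Because arthritic mice were older, status was fitted together with age in months over all 10 arrays. This fit takes the change per month as constant and the same in both statuses. Only 1 pair of mice of different status shared an age, so "at equal age" rests on that assumed straight line. Each of the 9 fitted differences was larger than that gene's difference within old or within young mice (medians 0.39 and 0.52, given below). At equal age the fitted difference was positive for all 9 genes and ran from 0.43 for Ppbp to 0.94 for Vwf, with a median of 0.67, against 0.09 for all 23805 probe sets. Gp5 passed the threshold (limma, Benjamini-Hochberg adjusted over 23805 probe sets) and was 1 of 9 genes called, where 2.26% of all probe sets were called. The other 8 had adjusted p-values from 0.0507 to 0.0868. Unadjusted, 9 of 9 had p under 0.05, against 22.9% of all probe sets.
Gp5 averaged 11.00 ± 0.43 in arthritic mice (SD, n = 4) and 10.47 ± 0.28 in non-arthritic mice (SD, n = 6), and at equal age rose 1.84-fold (0.88 on the log2 scale, SE 0.18, 95% interval 0.49 to 1.28, limma adjusted p = 0.0392).
Vwf averaged 11.07 ± 0.41 in arthritic mice and 10.47 ± 0.36 in non-arthritic mice, a fitted 1.92-fold difference (0.94, SE 0.21, interval 0.47 to 1.42, limma adjusted p = 0.0507). Gp1bb averaged 11.91 ± 0.42 in arthritic mice and 11.46 ± 0.40 in non-arthritic mice, a 1.79-fold difference (0.84, SE 0.22, adjusted p = 0.0683). These differences, like those that follow, missed the threshold. Gp6 averaged 8.77 ± 0.35 in arthritic mice and 8.32 ± 0.26 in non-arthritic mice (0.70, SE 0.18, adjusted p = 0.0693). Gp9 averaged 11.02 ± 0.42 in arthritic mice and 10.69 ± 0.28 in non-arthritic mice (0.66, SE 0.18, adjusted p = 0.0827). The receptor chains thus had fitted folds of 1.58 to 1.84.
Of the integrin chains, Itga2b averaged 11.67 ± 0.29 in arthritic mice and 11.31 ± 0.30 in non-arthritic mice (0.67, SE 0.15, adjusted p = 0.0511), a 1.59-fold difference. Itgb3 averaged 10.58 ± 0.33 in arthritic mice and 10.35 ± 0.34 in non-arthritic mice (0.58, SE 0.17, adjusted p = 0.0868) and its second probe set gave 0.40 (SE 0.16, adjusted p = 0.165). Of the chemokines, Pf4 averaged 13.45 ± 0.28 in arthritic mice and 13.16 ± 0.23 in non-arthritic mice (0.55, SE 0.13, adjusted p = 0.0549), a 1.46-fold difference. Ppbp averaged 14.12 ± 0.18 in arthritic mice and 13.86 ± 0.16 in non-arthritic mice (0.43, SE 0.10, adjusted p = 0.0511), a 1.34-fold difference. The dim second probe set of Gp1bb, fitted without the filter, gave 0.33 (SE 0.12, adjusted p = 0.0936).
Without regard to age, the 4 arthritic and 6 non-arthritic mice overlapped for all 9 genes, where 10.4% of probe sets had every arthritic mouse above every non-arthritic mouse. With age left out of the fit the median difference was 0.36 and none of the 9 genes was called.
How many of these genes passed depended on single mice. The call of Gp5 was lost without old non-arthritic mouse 1 (adjusted p = 0.176), old non-arthritic mouse 2 (0.116), young arthritic mouse 1 (0.101), young arthritic mouse 2 (0.252) or young non-arthritic mouse 2 (0.0556), and over the 18 alternatives tried its adjusted p ran from 0.0099 to 0.252. The call was also lost after quantile normalization again (0.75, adjusted p = 0.0816). Without young non-arthritic mouse 4, aged 1 month, 9 of the 9 genes were called, and without young non-arthritic mouse 3, aged 2 months, Itga2b, Gp5 and Vwf were. The fitted differences were positive for all 9 genes under all 19 settings tried, the settings that leave out a mouse included.
The labelled age of 5 months was shared by young arthritic mouse 1 and old non-arthritic mouse 2, the 1 pair of mice of equal age and different status. Young arthritic mouse 1 was higher for all 9 genes, by 0.53 (Ppbp) to 1.00 (Vwf), with a median of 0.65, against 0.10 over all 23805 probe sets. With 1 mouse on each side this difference has no replicate check.

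**Figure D3:**
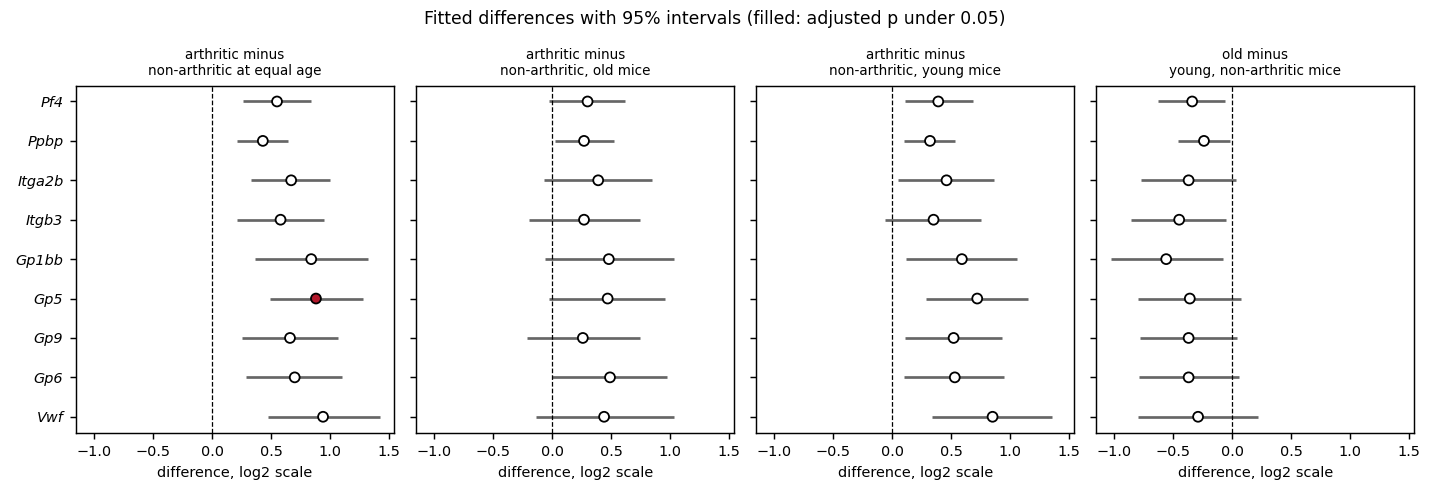
Fitted log2 differences of 9 platelet genes (horizontal axis) with 95% intervals in 4 comparisons. Filled points have an adjusted p under 0.05, which at equal age is Gp5 alone. All 36 points lie on the side of the arthritic mice or, in the age comparison, below 0.

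Among old mice, arthritic mice lay above non-arthritic mice for 9 of 9 genes with no overlap, where 35.3% of all probe sets did so with 2 mice on each side. None of the 9 genes was called by limma, where 0.0714% of all probe sets were, and adjusted p-values ran from 0.241 to 0.51. Ppbp and Gp6 had an unadjusted p under 0.05, as did 18.6% of all probe sets. The differences ran from 0.26 for Gp9 to 0.49 for Gp6 (SE 0.22), with a median of 0.39, against 0.05 for all probe sets. Pf4 averaged 13.23 ± 0.09 in old arthritic mice and 12.93 ± 0.03 in old non-arthritic mice (SD, n = 2 each), a difference of 0.30 (SE 0.15). Gp1bb averaged 11.58 ± 0.04 in old arthritic mice and 11.09 ± 0.04 in old non-arthritic mice, a difference of 0.48 (SE 0.24). The standard errors come from the spread shared by all 4 groups.
Among young mice the differences were 0.32 for Ppbp to 0.85 for Vwf, with a median of 0.52, against 0.09 for all probe sets. Vwf averaged 11.41 ± 0.05 in young arthritic mice (SD, n = 2) and 10.57 ± 0.42 in young non-arthritic mice (SD, n = 4), a difference of 0.85 (SE 0.22). Gp5 differed by 0.72 (SE 0.19). None of the 9 genes was called, where 0.311% of all probe sets were, and adjusted p-values ran from 0.135 to 0.332. All genes but Itgb3 had an unadjusted p under 0.05, as did 18.2% of all probe sets. The groups did not overlap for 6 of 9 genes (Pf4, Ppbp, Gp5, Gp6, Gp9 and Vwf), where 25.6% of probe sets had every arthritic mouse higher. These values depended on single mice. The median difference was 0.76 without young arthritic mouse 1 and 0.28 without young arthritic mouse 2, and Vwf was called when young non-arthritic mouse 3 was left out.
The arthritis differences of old and young mice were then set against each other. The difference of the differences, old minus young, was negative for all 9 genes, from -0.40 for Vwf (95% interval -1.18 to 0.37) to -0.04, with a median of -0.10, against -0.03 for all probe sets. None of the 9 genes was called, as was none of the 23805 probe sets (0.0%), and no gene of the 9 had an unadjusted p under 0.05, against 3.1% of all probe sets. The interval of Vwf thus spans values of either sign. The shared sign rested on single mice, since without young arthritic mouse 2 the difference was positive for 7 of 9 genes (median 0.02), and without old arthritic mouse 2 or young non-arthritic mouse 4 for 3 of 9 (medians -0.04 and -0.02). It was positive for 1 of 9 without old non-arthritic mouse 1 (median -0.13) or old non-arthritic mouse 2 (-0.14) and after quantile normalization again (-0.07), while the median was -0.32 without young arthritic mouse 1, -0.22 without young non-arthritic mouse 3 and -0.19 without old arthritic mouse 1.

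The effect of age was compared among non-arthritic mice. Group means were lower in old than in young non-arthritic mice for all 9 genes, with differences of -0.56 (Gp1bb) to -0.24 (Ppbp), with a median of -0.37, against -0.02 for all probe sets. Gp1bb averaged 11.09 ± 0.04 in old non-arthritic mice (SD, n = 2) and 11.65 ± 0.36 in young non-arthritic mice (SD, n = 4). Both old mice lay below all 4 young mice for 6 of 9 genes (Pf4, Ppbp, Itga2b, Itgb3, Gp1bb and Gp5), where 7.77% of all probe sets did. By limma none of the 9 genes was called (adjusted p = 0.997), as was none of the 23805 probe sets (0.0%). At an unadjusted p under 0.05 there were 4 of 9 genes (Pf4, Ppbp, Itgb3 and Gp1bb) and 3.19% of all probe sets.
In the fit with arthritis status, the slope per month of age was negative for all 9 genes, from -0.12 for Gp1bb to -0.05 for Ppbp, with a median of -0.10, against -0.01 for all probe sets. None of the 9 was called (adjusted p = 0.466 to 0.49), where 0.0042% of probe sets were. Unadjusted, 9 of 9 had p under 0.05, against 9.98% of all probe sets. The 1-month-old mouse was low for these genes and so went against this slope. Without it the median slope was -0.14 per month. This fit and the one at equal age share their arrays, and so do the comparisons within age groups.

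Other platelet genes were taken from 4 lists of the pathway. Of other platelet receptors, 15 of 18 genes were kept and 14 of the 15 had a positive difference at equal age, with a median of 0.45, against 0.09 for all probe sets. One of the 15 was called, beside 2.26% of all probe sets. This was Cd9, a tetraspanin at the platelet surface. It averaged 12.25 ± 0.28 in arthritic mice and 11.95 ± 0.22 in non-arthritic mice (0.58, SE 0.11, limma adjusted p = 0.0338). F2rl2 (0.66) and F2rl3 (0.52), which are thrombin receptors, and Treml1 (0.79), a receptor of the alpha granule membrane, had adjusted p-values of 0.067 to 0.0693.
Of other granule and release proteins, 18 of 19 were kept and 17 of the 18 were positive, with a median of 0.30. Beside 2.26% of all probe sets, 1 of the 18 was called. This was F13a1, the catalytic chain of clotting factor XIII. It averaged 10.74 ± 0.33 in arthritic mice and 10.21 ± 0.31 in non-arthritic mice (0.82, SE 0.18, adjusted p = 0.049). Cxcl5, the chemokine gene beside Ppbp, had a difference of 0.96 (adjusted p = 0.0507), and Thbs1, which encodes thrombospondin of the alpha granule, one of 0.74 (adjusted p = 0.0729).
Of genes for platelet formation, cytoskeleton and signalling, 22 of 24 were kept and 21 of the 22 were positive, with a median of 0.36. Of the 22, 4 were called, beside 2.26% of all probe sets. The 4 genes called were Pdlim1 (0.46, adjusted p = 0.0178), an adaptor on actin filaments, Flna (0.35, adjusted p = 0.0423), whose filamin links GPIb to actin, Myl9 (0.50, adjusted p = 0.0459), a myosin light chain, and Fermt3 (0.38, adjusted p = 0.0489), which activates integrins. Pdlim1 measured 11.55 and 11.47 in old arthritic mice, against 11.00 and 11.12 in old non-arthritic mice. It measured 11.54 and 11.55 in young arthritic mice, against 11.15, 11.15, 11.13 and 11.15 in young non-arthritic mice. Every arthritic mouse thus lay above every non-arthritic mouse for Pdlim1, as was so for 10.4% of all probe sets. The 2-month-old mouse, high for the platelet glycoproteins, was not high for Pdlim1.
Of megakaryocyte transcription factors, 13 of 13 were kept and 12 were positive, with a smaller median of 0.17 and none called. Gata2 (0.25, adjusted p = 0.0906), Gata1 (0.41, adjusted p = 0.154), Fli1 (0.37, adjusted p = 0.198) and Lmo2 (0.17, adjusted p = 0.299) had the smallest p-values. In none of the 4 lists was a gene called lower at equal age, and none was called in either direction in old mice, in young mice or by age. Their medians in old mice were 0.16 for receptors, 0.05 for granule proteins, 0.12 for formation and cytoskeleton and 0.17 for transcription factors, against 0.05 for all probe sets. In young mice these medians were 0.36, 0.19, 0.21 and 0.15 in the same order, against 0.09. Fewer genes were positive in old mice, at 10 of 15, 12 of 18, 15 of 22 and 10 of 13 in that order. In young mice 15, 17, 21 and 11 were.
The 6 calls in these lists and that of Mrvi1, described next, were all lost when any 1 of 4 mice was left out. Adjusted p-values of the 7 genes were then 0.147 to 0.244 without old non-arthritic mouse 1, 0.0659 to 0.131 without old non-arthritic mouse 2, 0.0704 to 0.148 without young arthritic mouse 1 and 0.127 to 0.28 without young arthritic mouse 2. Without old arthritic mouse 2, 3 of the 7 were lost (highest adjusted p 0.0615), as were 3 without young non-arthritic mouse 1 (0.056), 5 without mouse 2 (0.0642) and 3 without mouse 3 (0.0663) of that group. Quantile normalization applied again also ended all 7 calls, with Flna at 0.19 (adjusted p = 0.298), Fermt3 at 0.21 (0.227), Pdlim1 at 0.30 (0.0841), Myl9 at 0.34 (0.127), Cd9 at 0.42 (0.0841), F13a1 at 0.67 (0.112) and Mrvi1 at 0.69 (0.0858). With the kept probe sets of a gene averaged, Fermt3 was at 0.23 (0.133) and Mrvi1 at 0.7 (0.0527), so both calls were lost. Without age in the fit all but Pdlim1 were lost, and Flna was at 0.15 (0.343) and Myl9 at 0.17 (0.477). With the replicate number as a block Mrvi1, Pdlim1, Cd9, Myl9, Fermt3 and Flna were lost (adjusted p = 0.0507 to 0.0955). No other mouse has the number of young non-arthritic mouse 3 or 4, so the block in effect leaves both out. Centring arrays on their medians ended the calls of F13a1, Flna, Myl9 and Fermt3 (0.0595 to 0.0692). A stricter filter ended those of Myl9, Fermt3, Mrvi1 and F13a1 (0.0533 to 0.055).

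The genes whose 10 values were most like the mean profile of the 9 genes were looked for among 11861 other named genes. The 12 with the highest Pearson r were Treml1 (0.991), Mrvi1 (0.989), P2rx1 (0.987), Ppif (0.985), F2rl2 (0.984), Alox12 (0.982), Smim3 (0.98), Sytl4 (0.979), Tuba8 (0.974), Parvb (0.972), Tmem40 (0.969) and Ilk (0.968). Of these, 5 stood in the platelet lists above. For comparison, the 9 genes themselves had an r of 0.947 to 0.991 with the profile they are part of. The median r of all candidates was 0.28, and 69 of them (0.582%) reached 0.9, whereas 3 lay at -0.9 or below. Leaving out 1 array kept 9 to 12 of the 12 genes, but ranking by Spearman's rho kept 5. The likeness is over 10 arrays only and is given as a description. Mrvi1 differed by 0.80 at equal age (SE 0.17, adjusted p = 0.0461). It measured 9.52 and 9.29 in old arthritic mice, against 8.99 and 9.15 in old non-arthritic mice, and 9.94 and 10.23 in young arthritic mice, against 9.46, 9.29, 9.81 and 9.16 in young non-arthritic mice.

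**Figure D4:**
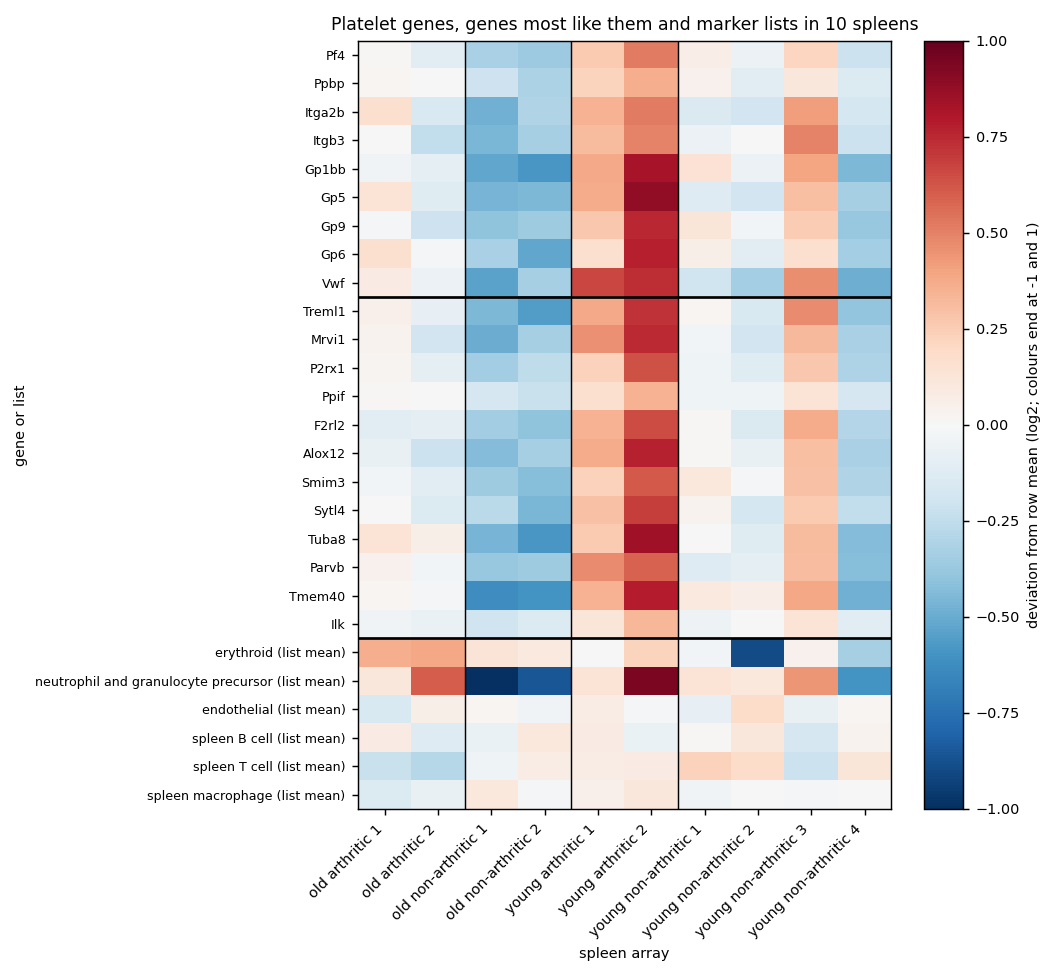
Deviation of each gene or list mean from its mean over 10 arrays (colour, log2, ending at -1 and 1) in 10 spleens. The 9 platelet genes are at the top, the 12 genes most like them in the middle and 6 marker lists below. The first 2 blocks share the highest colours in young arthritic mouse 2 and the lowest in the old non-arthritic mice, and the neutrophil list is high and low in much the same mice.

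Marker genes of other cells were set beside these values. The 14 kept genes of 16 for neutrophils and their precursors all had positive differences at equal age, with a median of 1.17, against 0.09 for all probe sets. None was called. Where 22.9% of all probe sets had an unadjusted p under 0.05, all 14 of these genes did. Their mean signal was 12.46 to 12.95 in old arthritic mice, against 11.32 to 11.49 in old non-arthritic mice, and 12.48 to 13.29 in young arthritic mice, against 11.75 to 12.79 in young non-arthritic mice. Their r with the profile of the platelet genes was 0.70 to 0.88 over the 10 arrays, with a median of 0.83. These genes thus moved with the platelet genes across the mice, and their part in the differences above was not tested. Their median difference was 1.32 in old mice, where that of the platelet genes was 0.39, and 0.50 in young mice, where that of the platelet genes was 0.52.
The 15 kept erythroid genes of 18 had a median difference of 0.19 at equal age and none was called. Their mean signal was 12.68 to 12.70 in old arthritic mice, against 12.41 to 12.44 in old non-arthritic mice, and 12.32 to 12.54 in young arthritic mice, against 11.42 to 12.36 in young non-arthritic mice. Their r with the platelet profile was low (0.10 to 0.44, median 0.22). Between old and young non-arthritic mice they had a median difference of 0.42, with a sign opposite to that of the platelet genes.
Endothelial cells also make Vwf, so its values were set beside 15 kept endothelial genes of 15. Their mean signal was 9.35 to 9.58 in arthritic mice, against 9.42 to 9.69 in non-arthritic mice, and their median difference at equal age was 0.03, with none called. Vwf had an r of -0.68 to 0.63 with single endothelial genes (median 0.01), and of 0.85 to 0.95 with the other 8 platelet genes (median 0.91). Vwf thus followed the platelet genes in these spleens.
Of 9 kept mast cell and basophil genes of 10, 2 were called, beside 2.26% of all probe sets, and the list median was 0.79. These were Fcer1a (0.91, adjusted p = 0.0237), which encodes a chain of the high-affinity IgE receptor, and the mast cell protease gene Cpa3 (0.95, adjusted p = 0.0485). Fcer1a was dim, at 6.52 to 7.96 over the arrays, beside array medians of 6.88 to 6.96. Of 11 kept stem and progenitor genes, 1 was called, beside the same 2.26%, and the list median was 0.17. This was the transcription factor gene Myb (0.47, adjusted p = 0.0439). These 3 calls were also lost without old non-arthritic mouse 1 (adjusted p = 0.169 to 0.24), old non-arthritic mouse 2 (0.073 to 0.128), young arthritic mouse 1 (0.0827 to 0.114) or young arthritic mouse 2 (0.182 to 0.252), and without age in the fit (0.12 to 0.543). Of other mice left out, Cpa3 was lost without young non-arthritic mouse 1 (0.052), 2 (0.0633) or 3 (0.0676), and Myb without old arthritic mouse 2 (0.0542) or young non-arthritic mouse 2 (0.0571). After quantile normalization again Cpa3 (0.112) and Myb (0.33, 0.155) were lost as well. With the replicate number as a block all 3 were lost (0.0559 to 0.0857), and with a stricter filter Cpa3 (0.0538) and Myb (0.0524). Fcer1a did not pass that filter and was not tested there. Myb was also lost with arrays centred on their medians (0.0598) and with its probe sets averaged (0.0571). Cell cycle genes had a median of 0.27, with 13 of 13 positive and none called. The lists for B cells (median 0.01), T cells (-0.03) and macrophages (0.02) had no gene called.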

How the data were processed

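The authors deposited log2 signals of an Affymetrix mouse array, which their processing notes name as RMA values (background-corrected, quantile-normalized and summarized by probe set), in a version not given in the sources used here. Methods for the arrays are missing from the paper's text. The table holds 45101 rows, of which 64 controls were left out. Probe sets with 1 gene symbol (34945) were named, and those with several (932) or none (9160) were tested unnamed. Of several kept probe sets, that of highest mean represents the gene. With limma 3.58.1 (R 4.3.3), linear models were fitted over all 10 arrays, as 4 group means, or as arthritis status plus age in months, with Benjamini-Hochberg adjustment over 23805 probe sets and a threshold of 0.05. The code was tested on simulated data. P-values rest on the mouse-to-mouse spread, and the number of arrays limits the precision. The 10 genes, the 13 lists and the comparisons were chosen with earlier results of these data known. Named genes are the members, up to 4 genes of each platelet list with the smallest p at equal age and any past the threshold, and the 12 genes most like the members. Genes called in marker lists were named after their values were seen. Alternatives covered the filter, the scaling, the estimate of the spread, the replicate number as a block, the arrays in the fit, age, the probe sets of a gene and leaving out each array. Promoter windows are from RefSeq on GRCm38.p6. Figures were drawn with matplotlib 3.10.9.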

Additional observations from a re-analysis of the deposited data

Results flagged for a closer look

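In the group of 4 young non-arthritic mice, the value of Itga2b in mouse 3 (2 months) stood apart from the rest, at 11.87, with the others at 11.26 to 11.31 and a gap that was 0.922 of the group's range. The same mouse stood apart for Thbs1, at 11.08 against 10.30 to 10.43, a gap of 0.831 of the range. These were 2 of 36 sets of values looked at in this way, near the 5% that chance alone gives. Both fall on the same mouse and the genes moved together, so they are not independent.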

How the results depend on the processing

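Differences of single named genes under settings other than leaving out a mouse were compared with the reported fit. Of these, 548 kept their call, or stayed uncalled and within 1 SE of the reported value, whatever the sign. Another 41 gained a call and 32 lost one. The remaining 42, with the ranking by Spearman's rho counted in, moved further without a call changing. No called difference changed sign. For the difference of the arthritis differences, which has no call, 1 of 9 platelet genes turned positive after quantile normalization again, and up to 7 of 9 when a mouse was left out. At equal age 538 probe sets were called (80.1% of them higher in arthritic mice), against 5475 without the filter on dim probe sets, 198 with a stricter one, 274 with arrays centred on their medians, 177 after quantile normalization again (66.7% higher), 29 with the replicate number as a block and 2517 without age in the fit. Of the 9 platelet genes, 9 were called without the filter, 5 with a trend of the spread with signal level, 5 with all kept probe sets of a gene averaged, and 0 after quantile normalization again or without age, against 1 in the reported fit. With the block 1 was called, Vwf (adjusted p = 0.0393) in place of Gp5 (0.0574). Replicate numbers 3 and 4 occur only among the young non-arthritic mice. The block therefore fits the mice of 2 months and 1 month exactly, and they add nothing to its differences. Leaving out each mouse gave 0 to 9 platelet genes and 0 to 872 probe sets at equal age.
In old mice 17 probe sets were called, against 2280 without the filter, 3 with the stricter one, 32 after quantile normalization again, 7 with the trend, 66 with all kept probe sets of a gene averaged, and 0 with the replicate block or with only the 2 groups in the fit. Leaving out each mouse gave 0 to 1532. In young mice 74 were called, against 3186 without the filter (with 2 platelet genes), 2 with the stricter filter, 34 after quantile normalization again, 6 with the trend, 17 with only the 2 groups and 0 with the replicate block, and 0 to 84 without each mouse, with 0 to 1 platelet genes. For the difference of the arthritis differences, leaving out each mouse gave 0 to 55 probe sets, and for old against young non-arthritic mice 0 to 2. For the slope with age 1 probe set was called, against 2 with the stricter filter, 0 with the trend and 0 with the replicate block, and 0 to 1 without each mouse. The causes of these changes were not tested. Another filter alters how many probe sets enter the fit and the adjustment, and its part in the changes was not tested either. Deviations of same-numbered mice from their group means correlated at -0.53 to 0.36. In a group of 2 mice the deviations mirror each other, so these values cannot tell whether the replicate numbers pair the mice. The median difference of all probe sets at equal age was 0.09, 0.11 with centring and -0.00 after quantile normalization again, and that of the platelet genes 0.67, 0.69 and 0.51. Groups of 2 mice limit every comparison, and a lone mouse left in a group was assumed to vary like the other groups.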
